A study of Homo sapiens with 4 samples.

Results

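Ceramide metabolism was followed through 10 genes: *SMPD1*, *ASAH1*, *SPTLC1*, *SPTLC2*, *CERS2*, *CERS5*, *SGMS1*, *UGCG*, *SPHK1* and *SGPL1*. They were taken by gene symbol from the 16376 genes of the deposited expression table. No measured value entered that rule, but the list was chosen with earlier results of these data known. All 10 were listed and passed the filter on low values (a mean of at least 0.1 FPKM, fragments scaled to transcript length and library depth), as did 12663 genes in all. The study sequenced RNA of LASCPC-01, a neuroendocrine prostate cancer (NEPC) cell line made with NMYC and activated AKT1, after PBS (2 libraries) or fluoxetine dissolved in PBS (2 libraries). Both groups carried the genotype label WT and shared the oncogenes with which the line was made. The text of the study gives 5 µM fluoxetine for 48 h, whereas the sample titles read day 3, give no dose, and carry the letters PP for the fluoxetine samples, whose treatment label is fluoxetine. LASCPC-01 is a single line, and nothing in the labels says that the 2 libraries of a group came from separate cultures, so p-values measure only the spread between these libraries, which may be technical.

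Ceramide is the branch point of sphingolipid metabolism. It is made de novo in the endoplasmic reticulum from serine and palmitoyl-CoA, or released in the lysosome from sphingomyelin by acid sphingomyelinase, the product of *SMPD1*; it is then turned into sphingomyelin, glucosylceramide or, through sphingosine, sphingosine-1-phosphate. Ceramide is known for its link to growth arrest and cell death, and sphingosine-1-phosphate for its link to survival. Fluoxetine, a cationic amphiphilic antidepressant, belongs to the compounds known as functional inhibitors of acid sphingomyelinase, which act on the enzyme in the lysosome and not on its transcript, so RNA levels do not report that activity. The comparison of fluoxetine with PBS therefore asked whether transcripts of the enzymes that make, use and remove ceramide differed between the treatments.

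The 4 libraries held 32873603 to 34831389 reads by the depth recovered from the FPKM values, so that 1 read on a transcript of 1 kb was worth 0.0287 to 0.0304 FPKM. The neuroendocrine markers *NCAM1*, *INSM1* and *ENO2* reached 1 FPKM, while *CHGA* and *NEUROD1* were below 0.1 FPKM. The mean of each of 4 leukocyte markers over the 4 libraries was below 0.1 FPKM. The summed FPKM of 4 epithelial markers was 1090 to 1140 in PBS and 1158 to 1236 under fluoxetine. Not all of them were higher: *CDH1* had means of 88.5 FPKM in PBS and 82.9 FPKM under fluoxetine. The groups overlapped for *CDH1* and for *KRT18*. The part of this sum in the results was not tested. Over 12585 genes with a recovered length, centred log2 values correlated with log2 transcript length at r = -0.284 in fluoxetine replicate 1, against 0.0559, 0.188 and 0.0456 in PBS replicates 1 and 2 and fluoxetine replicate 2 (across genes, which are not independent replicates).

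None of the 10 genes was called by limma, a linear model with moderated variance fitted to log2(FPKM + 0.1) over all 12663 genes, at a Benjamini-Hochberg adjusted p under 0.05. Over all genes tested the same rule called 30, which is 0.237%, with 27 lower and 3 higher under fluoxetine. At an unadjusted p under 0.05, limma likewise gave 0 of the 10, against 8.51% of all genes. The values of 7 genes were lower and those of 3 higher under fluoxetine. In 4 of the 10 (*SMPD1*, *SPTLC1*, *SGMS1* and *SPHK1*) both fluoxetine libraries lay below both PBS libraries, beside 24.8% of all genes. In 1 (*CERS5*) both lay above, beside 16.7% of all genes. The median log2 fold change of the 10 was -0.06, beside -0.02 over all genes tested, and the median absolute log2 fold change was 0.07, beside 0.10. The 95% interval of the log2 fold change lay within 0.5 on either side of 0 for 8 of the 10, which leaves *SGMS1* and *SPHK1* with wider intervals.

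Transcript levels spanned a 126-fold range, from *CERS2* at a mean of 63.9 FPKM over the 4 libraries to *SPHK1* at 0.507 FPKM. FPKM is scaled to a length for each gene, so levels, ratios and shares across genes hold only for the lengths behind the values. Those lengths differed from GENCODE 29 exons, at 3225 against 15378 bases for *ASAH1* and 10746 against 6429 for *SGMS1*. The order of levels under other lengths was not tested. Between *CERS2* and *SPHK1* came *ASAH1* at 26.2, *SPTLC1* at 19.5, *SGPL1* at 16.0, *SPTLC2* at 9.96, *UGCG* at 6.37, *SMPD1* at 5.54, *CERS5* at 4.08 and *SGMS1* at 3.12 FPKM. No gene's 4 values overlapped those of the next gene in this order. The closest neighbours were *UGCG* and *SMPD1*, whose means differed 1.15-fold, and the widest gap was that between *SGMS1* and *SPHK1*, 6.15-fold. *SMPD1* itself stood above 41.6% of the genes tested.

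**Figure D1:**
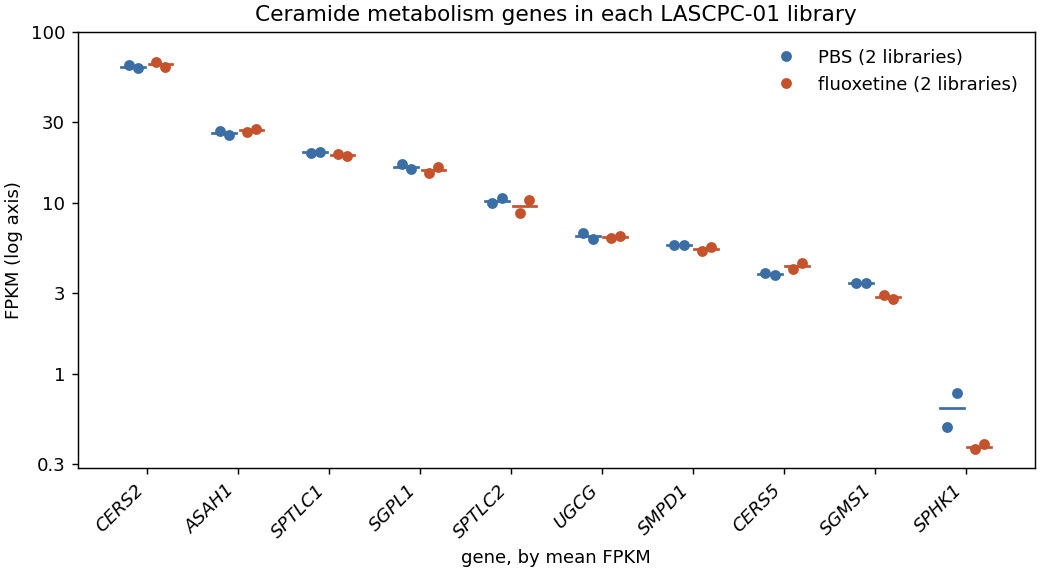
Level of each of the 10 genes in FPKM (log axis) in the 2 PBS and 2 fluoxetine libraries, with genes ordered by mean FPKM and bars at the group means. The difference between genes, 126-fold from *CERS2* to *SPHK1*, is far larger than any difference between treatments, and *SPHK1* is the one gene whose PBS libraries lie visibly apart, at 0.490 and 0.781 FPKM.

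*SMPD1* encodes acid sphingomyelinase, the lysosomal enzyme that splits sphingomyelin into ceramide and phosphocholine. Its level was 5.70 FPKM in both PBS libraries and 5.23 and 5.54 FPKM in fluoxetine replicates 1 and 2. The 2 fluoxetine libraries were lower, without overlap, and the group means were 5.70 ± 0.00431 and 5.39 ± 0.219 FPKM (SD, n = 2). The log2 fold change was -0.08 (SE 0.10, 95% interval -0.30 to 0.14, limma adjusted p = 0.827), which is a change of -5.38% with an interval of -18.9% to 10.4%. With the length trend of each library removed it was -0.12 (limma adjusted p = 0.767). The PBS pair lay closer together than the counting error of either value: they rest on 463 and 489 reads, with exact Poisson 95% intervals of 421.8 to 507.2 and 446.6 to 534.3 reads that cover counting error only. The fluoxetine values rest on 450 and 477 reads, with intervals of 409.4 to 493.6 and 435.1 to 521.8 that overlap those of PBS. A difference of this size in *SMPD1* was thus not detectable at this depth and number of libraries.

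*SGMS1* encodes sphingomyelin synthase 1 of the Golgi, which runs the opposite way and turns ceramide into sphingomyelin. It measured 3.41 and 3.40 FPKM in PBS and 2.89 and 2.76 FPKM under fluoxetine, from 1206, 1269, 1080 and 1034 reads. Both fluoxetine libraries were lower, and the gap between the groups exceeded the spread within either: the means were 3.41 ± 0.0115 and 2.82 ± 0.0883 FPKM (SD, n = 2). The log2 fold change was -0.26 (SE 0.12, 95% interval -0.53 to 0.004, limma adjusted p = 0.579), a change of -16.6%. In order of p, *SGMS1* stood at place 1153 of the 12663 genes. Its recovered length, 10746 bases, was the longest of the 10, and with the length trend of each library removed the log2 fold change was -0.17 (limma adjusted p = 0.743). With limma voom on the recovered reads it was -0.27 (adjusted p = 0.324). Exons of *SGMS1* share positions with the antisense gene *SGMS1-AS1*, and since the strand setting of the counting is not given in the sources used here, their reads cannot be told apart.

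The genomic windows before the RefSeq start of these genes were read (GRCh38.p14), and 8 of the 10 genes matched (not *ASAH1* and *CERS2*). *SMPD1* and *SGMS1* are shown because they run the sphingomyelin cycle in opposite directions. Each line gives the 200 bases from 250 to 51 bases before the RefSeq gene start, 5′ to 3′ on the gene's strand, at chr11:6390224-6390423 (plus strand) for *SMPD1* and chr10:50624007-50624206 (minus strand) for *SGMS1*, both outside the exons of their own gene in GENCODE 29 (the *SGMS1* window lies within the span that GENCODE gives the gene, since a further transcript starts upstream). Capitals mark the GC box GGGCGG, a letter pattern known as an SP1 binding motif, or its reverse complement.
SMPD1: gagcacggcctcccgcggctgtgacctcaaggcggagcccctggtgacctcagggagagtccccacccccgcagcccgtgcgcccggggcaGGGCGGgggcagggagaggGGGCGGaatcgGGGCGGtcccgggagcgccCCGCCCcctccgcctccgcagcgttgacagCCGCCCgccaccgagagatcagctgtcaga
SGMS1: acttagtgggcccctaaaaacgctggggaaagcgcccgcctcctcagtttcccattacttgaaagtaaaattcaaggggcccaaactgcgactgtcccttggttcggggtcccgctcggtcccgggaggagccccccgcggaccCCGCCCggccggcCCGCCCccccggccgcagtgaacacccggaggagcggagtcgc
The *SMPD1* window held 5 GC boxes at 76.5% G and C, and the *SGMS1* window 2 at 67.5%. On either strand, GGGCGG was found in 7 of the 8 windows (not in that of *SPTLC1*), beside 55.3% of the 10250 windows of genes tested and 34.7% of all 27305. The windows of *SPTLC2*, *CERS5* and *SPHK1* share positions with exons of their own gene in GENCODE 29, so the 8 are not all upstream sequence. That of *SPHK1*, at chr17:76382954-76383153, lies within the span of the gene. The E-box CACGTG was found in 0 of the 8 windows, beside 6.55% of the windows of genes tested and 4.68% of all. The longer TCACGTGA, which contains that E-box and resembles the element known for lysosomal genes, was likewise in 0 of 8, beside 1.01% of the windows of genes tested. These matches describe letters in 1 window a gene.

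The ratio of *SMPD1* to *SGMS1* sets both arms of the sphingomyelin cycle side by side within a library, so that depth cancels, though gene length does not. It was 1.67 and 1.68 in PBS and 1.81 and 2.01 under fluoxetine, higher in both fluoxetine libraries by 0.19 on the log2 scale (exact permutation test, two-sided, p = 0.333, the smallest p that 2 against 2 libraries allow). With the length trend of each library removed, an alternative added after the data were seen, the difference was 0.05 on the log2 scale and the groups overlapped. Among the sphingomyelinases, *SMPD1* made up 12.4% and 11.8% of the summed FPKM in PBS and 11.1% and 11.3% under fluoxetine (exact permutation p = 0.333). Most of the family's transcripts were of *SMPD4*, a neutral sphingomyelinase, at 68.2% in PBS and 67.7% under fluoxetine, followed by *SMPD2* at 19.5% and 20.9%. Sphingomyelin synthase transcripts were nearly all *SGMS1*, with 99.6% in PBS and 99.4% under fluoxetine, so *SGMS2* added little. Among 9 tested genes of sphingomyelin synthesis and breakdown, limma called 0 and gave 0 at an unadjusted p under 0.05. The further genes of this class with the widest differences at 1 FPKM or more were *SMPDL3B*, which encodes an acid sphingomyelinase-like phosphodiesterase, at 2.04 and 2.22 FPKM in PBS and 2.49 and 2.62 under fluoxetine (log2 fold change 0.25, limma adjusted p = 0.613), and *SAMD8*, which encodes the sphingomyelin synthase-related ceramide phosphoethanolamine synthase, at 2.38 and 2.89 against 2.07 and 2.35 FPKM (log2 fold change -0.24, limma adjusted p = 0.631).

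**Figure D2:**
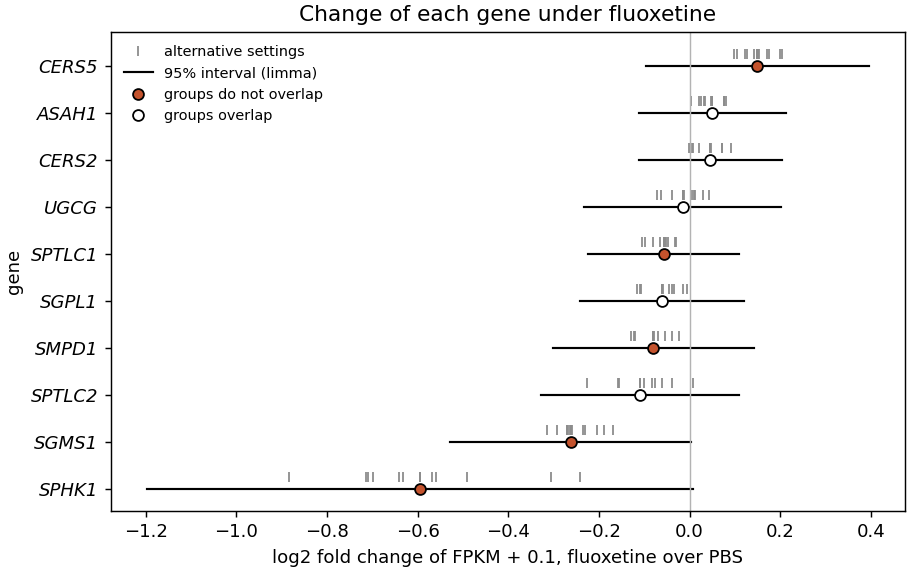
Log2 fold change of FPKM + 0.1, fluoxetine over PBS, for each of the 10 genes (circles; filled where the 2 groups do not overlap) with the 95% interval from limma (lines) and the values under the alternative settings (ticks). Every interval crosses 0, and *SGMS1* at -0.26 and *SPHK1* at -0.59 lie farthest from it.

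*SPTLC1* and *SPTLC2* encode subunits of serine palmitoyltransferase, which catalyses the first and rate-limiting step of de novo synthesis. *SPTLC1* measured 19.8 and 20.03 FPKM in PBS and 19.5 and 18.8 FPKM under fluoxetine. Both fluoxetine libraries were lower, by a log2 fold change of -0.06 (SE 0.08, 95% interval -0.22 to 0.11, limma adjusted p = 0.835). *SPTLC2*, the catalytic partner, measured 9.99 and 10.7 FPKM in PBS and 8.81 and 10.4 FPKM under fluoxetine, and the groups overlapped. Fluoxetine replicate 1 was the low library, and without it the log2 fold change went from -0.11 (SE 0.10, limma adjusted p = 0.749) to 0.01. With the length trend of each library removed, the log2 fold change was -0.04 for *SPTLC2*, of 8466 bases, and -0.10 for *SPTLC1*, of 2504 bases. *SPTLC3*, an alternative to *SPTLC2* in the enzyme, was the minor paralogue: *SPTLC2* held 83.4% ± 0.374 of their summed FPKM in PBS and 81.9% ± 0.231 under fluoxetine (SD, n = 2), with no overlap (exact permutation p = 0.333).

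Ceramide synthases join a fatty acid to the sphingoid base, and the paralogues prefer fatty acids of different length. *CERS2*, which is known for very long chains, measured 64.0 and 61.8 FPKM in PBS and 67.0 and 62.9 FPKM under fluoxetine. Its groups overlapped, and the log2 fold change was 0.05 (SE 0.07, 95% interval -0.11 to 0.20, limma adjusted p = 0.863). *CERS5*, which is known for palmitoyl chains, measured 3.93 and 3.80 FPKM in PBS and 4.15 and 4.45 FPKM under fluoxetine, from 458, 469, 512 and 550 reads. It was the one gene of the 10 with both fluoxetine libraries above both of PBS, with a log2 fold change of 0.15 (SE 0.11, 95% interval -0.10 to 0.39, limma adjusted p = 0.693), a change of 10.9%. *CERS2* held 64.6% ± 1.86 of the summed FPKM of the synthases in PBS and 66.2% ± 2.10 under fluoxetine (SD, n = 2), which overlapped. *CERS5* held 3.97% ± 0.104 and 4.38% ± 0.276 (exact permutation p = 0.333). The share of *CERS6*, the other palmitoyl-chain synthase, was 15.02% in PBS and 13.4% under fluoxetine, lower in both fluoxetine libraries (exact permutation p = 0.333). Over the 15 tested genes of de novo synthesis limma called 0 and gave 0 at an unadjusted p under 0.05, with 8 lower, 7 higher and a median log2 fold change of -0.02. The widest differences among further genes at 1 FPKM or more were those of *DEGS2*, a dihydroceramide desaturase, at 1.91 and 1.57 FPKM in PBS and 1.55 and 1.11 FPKM under fluoxetine (log2 fold change -0.37, SE 0.19, limma adjusted p = 0.603), and of *CERS6* at 14.0 and 15.3 against 12.5 and 13.8 FPKM (log2 fold change -0.15, limma adjusted p = 0.621). Exons of *CERS2* also lie opposite those of *SETDB1*, which measured 13.0 and 13.7 FPKM in PBS and 13.2 and 13.0 FPKM under fluoxetine.

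*ASAH1* encodes acid ceramidase, which acts after acid sphingomyelinase in the lysosome and splits ceramide into sphingosine and a fatty acid. It measured 26.3 and 25.2 FPKM in PBS and 26.2 and 27.1 FPKM under fluoxetine. The groups overlapped, and the log2 fold change was 0.05 (SE 0.07, 95% interval -0.11 to 0.21, limma adjusted p = 0.855). The ratio of *SMPD1* to *ASAH1* transcripts was 0.217 and 0.226 in PBS and 0.200 and 0.204 under fluoxetine, lower in both fluoxetine libraries by 0.13 on the log2 scale (exact permutation p = 0.333). *ASAH1* held 86.5% ± 0.725 of ceramidase FPKM in PBS and 87.3% ± 0.357 under fluoxetine (SD, n = 2, exact permutation p = 0.333). The alkaline ceramidase *ACER3* came next with 6.36% and 6.63%. Among 5 tested genes of ceramidases and ceramide kinase, and among 16 of lysosomal sphingolipid breakdown, limma called 0 and gave 0 at an unadjusted p under 0.05. The lysosomal class had 9 genes lower and 7 higher and a median log2 fold change of -0.01. Its log2 fold changes ran from -0.12 for *NPC1* to 0.20 for *SUMF1* (0.839 FPKM), both named outside the naming rule. The class was drawn wide and also held genes, such as these, that encode no sphingolipid-degrading enzyme. Its further genes with the widest differences at 1 FPKM or more were *HEXA*, which encodes a hexosaminidase subunit, at 10.3 and 8.42 FPKM in PBS and 10.4 and 10.6 FPKM under fluoxetine (log2 fold change 0.17, limma adjusted p = 0.624), and *NEU1*, the lysosomal sialidase, at 9.18 and 8.26 against 10.2 and 9.49 FPKM (log2 fold change 0.17, limma adjusted p = 0.613). In the ceramidase and ceramide kinase class, with the same limit of 1 FPKM, these were *ACER3*, with a log2 fold change of 0.10, and the kinase *CERK*, with -0.04.

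*UGCG* encodes glucosylceramide synthase, the entry to glycosphingolipids and a competitor of *SGMS1* for ceramide. It measured 6.66 and 6.15 FPKM in PBS and 6.23 and 6.45 FPKM under fluoxetine. The fluoxetine values lay between those of PBS, and the log2 fold change was -0.01 (SE 0.10, 95% interval -0.23 to 0.20, limma adjusted p = 0.980). The ratio of *UGCG* to *SGMS1* was 1.95 and 1.81 in PBS and 2.16 and 2.33 under fluoxetine, higher in both fluoxetine libraries by 0.26 on the log2 scale (exact permutation p = 0.333), and by 0.17 with the length trend removed. Of the 11 tested genes of glycosphingolipid synthesis, 10 had a lower mean and 1 a higher mean under fluoxetine. In 6 of the 11 both fluoxetine libraries were below both of PBS, a larger share than the 24.8% over all genes. The log2 fold changes of the 11 ran from -0.35 to 0.03 with a median of -0.06, beside -0.02 over all genes tested. Among them limma called 0 and gave 0 at an unadjusted p under 0.05. Values with the length trend removed are not given for this class. The further genes with the widest differences at 1 FPKM or more were the glycolipid transfer genes *PLEKHA8*, with a log2 fold change of -0.14, and *GLTP*, with -0.10.

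*SPHK1* encodes sphingosine kinase 1, which makes sphingosine-1-phosphate, and was the lowest of the 10 genes. It measured 0.490 and 0.781 FPKM in PBS and 0.366 and 0.390 FPKM under fluoxetine. Both fluoxetine libraries were lower, but the PBS libraries differed from each other by more than fluoxetine replicate 2 did from PBS replicate 1. The means were 0.636 ± 0.206 and 0.378 ± 0.0170 FPKM (SD, n = 2), and the log2 fold change was -0.59 (SE 0.28, 95% interval -1.20 to 0.01, limma adjusted p = 0.579). These values rest on 38, 64, 30 and 32 reads. The exact Poisson 95% interval of PBS replicate 1, 26.89 to 52.16 reads, contains both fluoxetine counts, whereas that of PBS replicate 2, 49.29 to 81.73 reads, does not. Without PBS replicate 2 the log2 fold change was -0.31, and without PBS replicate 1 it was -0.88. At a pseudocount of 1 it was -0.24, at a pseudocount of 0.01 it was -0.70, and with limma voom on the recovered reads -0.71. *SPHK1* lies opposite *PRPSAP1* with shared exon positions, and *PRPSAP1* measured 13.9 FPKM in both PBS libraries and 14.6 and 13.7 FPKM under fluoxetine, and without the strand of the counting the reads of the neighbour cannot be told apart from those of *SPHK1*.

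*SPHK2*, the paralogue that is also found in the nucleus and mitochondria, carried most of the kinase transcripts. *SPHK1* held 2.67% and 4.04% of their summed FPKM in PBS and 1.92% in both fluoxetine libraries (exact permutation p = 0.333). *SGPL1* encodes sphingosine-1-phosphate lyase, which ends the pathway by breaking sphingosine-1-phosphate irreversibly. It measured 16.9 and 15.8 FPKM in PBS and 15.1 and 16.3 FPKM under fluoxetine, and the groups overlapped. The log2 fold change was -0.06 (SE 0.08, 95% interval -0.24 to 0.12, limma adjusted p = 0.839). The ratio of *SPHK1* to *SGPL1* was 0.0290 and 0.0494 in PBS and 0.0242 and 0.0239 under fluoxetine (exact permutation p = 0.333), and its spread lay in the 2 PBS libraries. Over the 11 tested genes of sphingosine-1-phosphate metabolism and signalling, limma called 0 and gave 0 at an unadjusted p under 0.05, with 7 lower and 4 higher. The further genes with the widest differences at 1 FPKM or more were the lipid phosphatase *PLPP1*, with a log2 fold change of 0.12, and the receptor *S1PR2*, with -0.11.

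The wider sphingolipid pathway was taken as 79 genes in 6 classes, of which 77 were listed and 65 passed the filter, with some genes in more than 1 class. *CERS3* and *ENPP7* were not analysed here. Of the 65, limma called 0 and gave 0 at an unadjusted p under 0.05, beside 0.237% and 8.51% of all genes tested. The log2 fold change was negative for 40 of the 65 and positive for 25. The share of negative values over all genes was not counted. Both fluoxetine libraries lay below both of PBS in 18 of them, or 27.7%, and above in 11, or 16.9%, beside 24.8% and 16.7% of all genes. The median log2 fold change was -0.04, and -0.03 without the 10 genes, beside -0.02 over all genes tested.

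**Figure D3:**
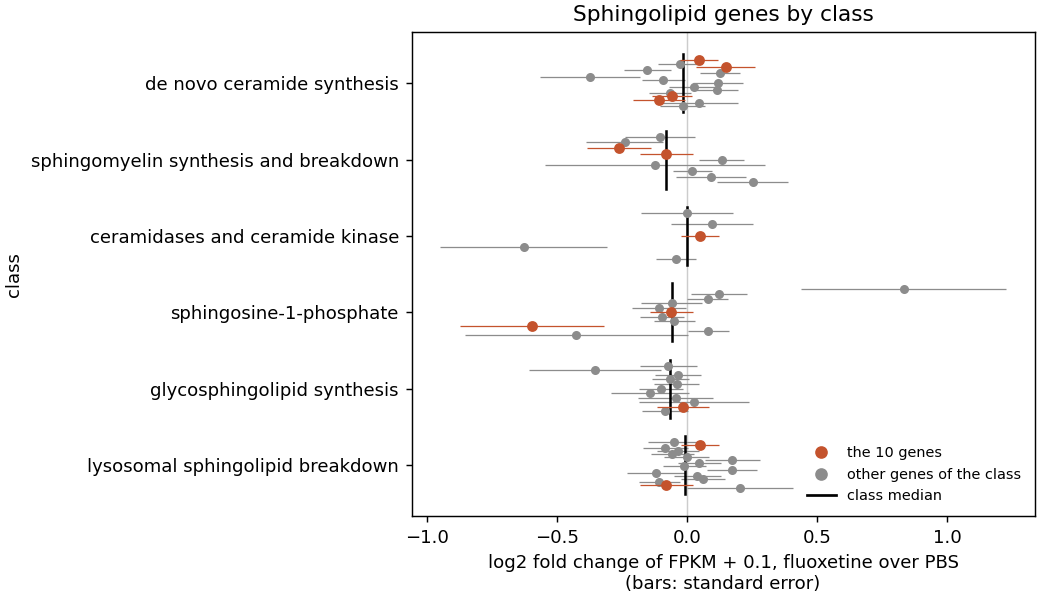
Log2 fold change of FPKM + 0.1, fluoxetine over PBS, of each tested sphingolipid gene by class (points, with the standard error from limma; the 10 genes in red) and the median of each class (black line). The class medians lie between -0.08 and 0.00, and the points farthest from 0, *MFSD2B* at 0.83 and *ASAH2* at -0.63, are of genes with means under 1 FPKM.

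Likeness to *SMPD1* over the 4 libraries was measured as the root mean square distance of log2 values centred on each gene's mean, among 57 sphingolipid genes at 1 FPKM or more. The nearest was *ORMDL3*, a negative regulator of serine palmitoyltransferase, at 0.0116. *SCARB2*, the lysosomal receptor that carries glucocerebrosidase, followed at 0.0136, and *B4GALT5*, a lactosylceramide synthase, at 0.0226. Over all genes tested, 198 were at least as near as *B4GALT5*. The counting intervals of *SMPD1* overlapped between the libraries, so this order of nearness cannot be told apart from counting error.

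By GENCODE 29 on GRCh38, *SMPD1* lies on chromosome 11 at 6390431 to 6394998 (plus strand), *SPHK1* on chromosome 17 at 76376584 to 76387860 (plus) and *UGCG* on chromosome 9 at 111896766 to 111935369 (plus). *SGPL1* lies on chromosome 10 at 70815961 to 70881173 (plus) and *SGMS1* on the same chromosome at 50305586 to 50625163 (minus). *SPTLC1* lies on chromosome 9 at 92000087 to 92115384 (minus), *SPTLC2* on chromosome 14 at 77505997 to 77616773 (minus), *CERS2* on chromosome 1 at 150960583 to 150975004 (minus), *CERS5* on chromosome 12 at 50129306 to 50167533 (minus) and *ASAH1* on chromosome 8 at 18055992 to 18084998 (minus). The lengths behind the FPKM values were not those of GENCODE 29: they came to 10746 bases for *SGMS1* against 6429 bases of exons, and to 2357 against 4416 for *SPHK1*.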

How the data were processed

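RNA-seq was run on 4 LASCPC-01 libraries, grouped by the treatment label. The authors deposited FPKM values per gene, and per the labels used fastp, HISAT2 and HTSeq on GRCh38, with no versions given. The labels name a stranded library kit and the study's methods another kit. The study names DESeq2 for its own comparison, which was not repeated here.

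Log2(FPKM + 0.1) of the 12663 genes with a mean of at least 0.1 FPKM was fitted with limma 3.58.1 in R 4.3.3 (variance trend), with Benjamini-Hochberg adjustment over all of them. The added 0.1 understates fold changes of low genes. Reads were recovered as the smallest whole numbers giving a gene's 4 FPKM values, which worked for 15983 of 16080 genes above 0 (99.4%). The library depths were set from 50 genes. Recovered reads may be too low by a whole factor, and counting intervals cover counting error only. Shares and ratios were compared by exact permutation tests (two-sided). With 2 libraries a group an exact permutation test cannot go below p = 0.333 and so cannot pass 0.05.

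The 10 genes and all lists were chosen with earlier results of these data known. Named were the 10 genes, any called gene of a class or otherwise the 2 further genes at a mean of 1 FPKM or more whose log2 fold change lay farthest from 0, the paralogues of each family and the 3 genes nearest to *SMPD1*. Genes named outside this rule are said to be so or are overlapping neighbours and markers. Scripts were tested on simulated data. The alternatives were other pseudocounts, filters, scalings, variance models, a replicate block, voom and leaving out each library. Some marker genes are not reported here.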

Additional observations from a re-analysis of the deposited data

How the results depend on the processing

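Under each of the 16 alternatives limma called 0 of the 10 genes and 0 of the sphingolipid pathway genes that entered the fit (*SPHK1* did not at a minimum mean of 1 FPKM), and the 10 included 0 to 2 with an unadjusted p under 0.05. *SPHK1* passed that unadjusted threshold under 6 alternatives and *SGMS1* under 3, with limma adjusted p values of 0.427 to 0.989 and 0.324 to 0.989. The number of genes called over all genes was 30, and became 51 with limma voom on recovered reads, 16 with quantile normalization, 64 with the replicate block, and 2 to 12 when a library was left out. It was 0 by limma with no filter on low values (1069 at an unadjusted p under 0.05) and 0 with no variance trend (933 of 12663). At that unadjusted threshold the 10 included 2 with no variance trend and 2 when rescaled to TPM (1190 of 13563 over all genes). They included 1 with the length trend removed (979 of 12585) and with voom (1481 of 14038). They also included 1 at a pseudocount of 1 (1098 of 12663) and with the replicate block (1405 of 12663). This list does not cover the fits that leave out a library, since these keep only 1 library in a group. The median log2 fold change of the 10 was -0.11 when rescaled to TPM, where that of all genes was -0.07, and -0.077 to -0.0028 when a library was left out. The direction of 7 of the 10 was the same throughout. *CERS2* reversed on TPM, at -0.0015. *UGCG* reversed with the length trend removed (0.0065), median centring (0.012) and quantile normalization (0.029), and ran from -0.071 to 0.042 when a library was left out. *SPTLC2* ran from -0.23 to 0.0084, and the *SGMS1* share differed by -0.613 to 0.321 percentage points. The cause of these shifts was not tested. The deviations of same-numbered libraries correlated with r = 0.0351 over all genes tested, 0.058 at a mean of at least 1 FPKM and 0.101 at 10 FPKM, and with 2 libraries a group this does not establish a pairing. The replicate block changed no call among the 10. The planned edgeR test on recovered reads was not run. The log2 ratios of *SMPD1* to *ASAH1* and of *SPHK1* to *SGPL1* differed by -0.16 and -0.60 with the length trend removed, added after the data were seen. A left-out library leaves 1 in its group, assumed to vary like the other group.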

Other observations

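The genes of the pathway under 1 FPKM with log2 fold changes past 0.3 in size, other than *SPHK1*, are named here after their values were seen. *MFSD2B*, a sphingosine-1-phosphate exporter of blood cells, measured 0.110 and 0.0865 FPKM in PBS and 0.179 and 0.345 FPKM under fluoxetine, with a log2 fold change of 0.83 (SE 0.39, limma adjusted p = 0.579). Both of its fluoxetine libraries were higher, at a level near the filter of 0.1 FPKM. *ASAH2*, the neutral ceramidase, measured 0.404 and 0.725 FPKM in PBS and 0.405 and 0.245 FPKM under fluoxetine, with a log2 fold change of -0.63 (SE 0.32, limma adjusted p = 0.603), and its groups overlapped. The related gene *ASAH2B* could share reads with *ASAH2*, which was not tested. *B3GALT4*, a ganglioside galactosyltransferase, measured 0.572 and 0.895 FPKM in PBS and 0.557 and 0.523 FPKM under fluoxetine (log2 fold change -0.35, limma adjusted p = 0.678). *SPNS2*, a sphingosine-1-phosphate exporter, measured 0.390 and 0.123 FPKM in PBS and 0.172 and 0.123 FPKM under fluoxetine (log2 fold change -0.43, limma adjusted p = 0.772). PBS replicate 2 was the highest library for *ASAH2* and *B3GALT4*, and PBS replicate 1 for *SPNS2*.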
